A study of Mus musculus with 7 samples.

Results

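The genes described here are 35 genes of homologous recombination, the Fanconi anaemia pathway and the replication checkpoint, taken by symbol from a table of 51138 mouse genes. They were followed in regulatory T cells (Tregs), the Foxp3-expressing CD4 T cells that restrain immune responses. The mice were C57/BL6 animals with a red fluorescent (RFP) reporter of Foxp3, and both groups carried the reporter. The treated group received 20 ug of FP, the IL-2/CD25 fusion protein that joins interleukin-2 to a chain of its own receptor, and gave 4 libraries (FP 1 to FP 4). The control group received 100 uL of PBS and gave 3 libraries (PBS 1 to PBS 3). Tregs were sorted from the spleen 72 h after the injection. The labels give no age or sex. Whether the libraries are from different mice is not stated, and every p-value therefore reflects only how these libraries vary, which may be technical.

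Homologous recombination repairs a broken chromosome by copying the intact sister chromatid, and it works mainly in S and G2 phase, when a sister is present. The Fanconi anaemia proteins deal with crosslinks between DNA strands: a core complex attaches ubiquitin to Fancd2 and Fanci, and the recombination proteins finish the repair. The checkpoint kinases Atr and Atm sense stalled forks and broken ends and act through Chek1 and Chek2, which hold the cell cycle. T cells driven to divide by interleukin-2 copy their genome within days, and lymphocytes with faults in these genes are known for broken chromosomes.

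Of the 35 genes, 22 rose, 1 fell and 12 did not pass the test after FP. The test was edgeR's quasi-likelihood test with Benjamini-Hochberg adjustment over all 15954 genes tested, at a threshold of 0.05. In all genes tested, 39.5% passed in either direction, 21.0% were higher and 18.5% were lower, against 62.9% of the 35 genes that were higher. The median log2 fold change of FP over PBS was 1.07 in the 35 genes and -0.05 in all genes tested. All 35 passed the filter on low counts, and the lowest count of any of them in any library was 9. Of the 22 genes that rose, 20 were at least 2-fold higher, 12 at least 4-fold and 6 at least 8-fold. Among all genes tested, 7.58% rose at least 2-fold and 1.56% at least 8-fold. In 24 of the 35 genes the FP and PBS libraries did not overlap, against 46.7% of all genes tested. Every FP library lay above every PBS library in 23 of the 35, against 23.2%, and every FP library lay below in 1, against 23.5%. The 23 were the genes that rose and Rad50, which did not pass. Of the 22 rises, 21 passed under every alternative processing run, Palb2 being the exception, and the fall of Atr did too. Among all genes, 53.2% of the calls were higher with the TMM scaling used here, 33.2% with upper-quartile scaling and 28.8% with library size alone, where the median of all genes stood at -0.25 and -0.31.

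**Figure D1:**
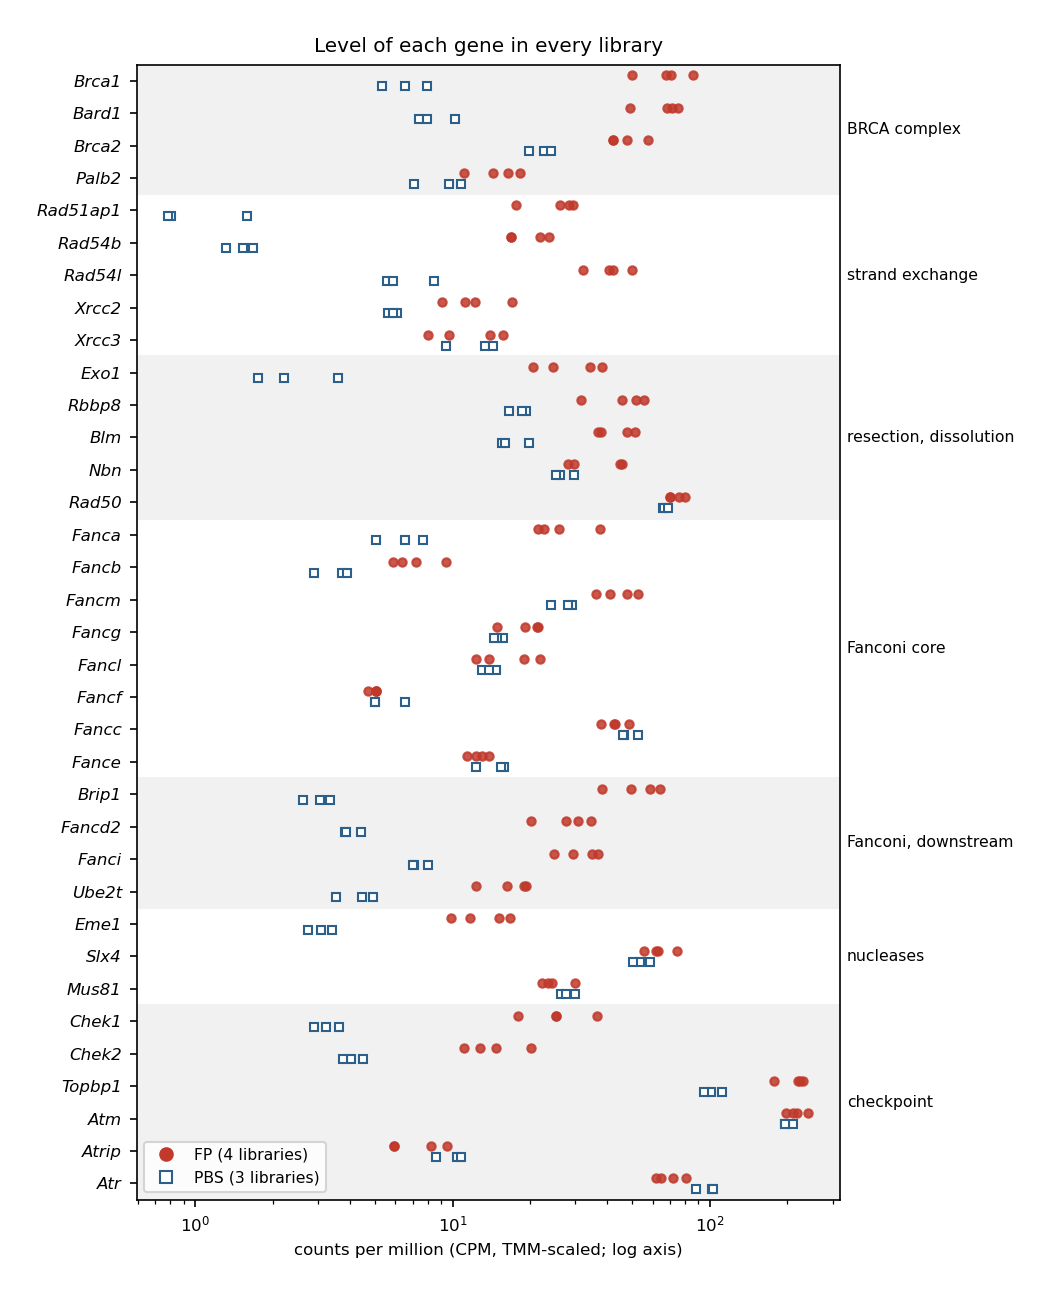
Level of each of the 35 genes in every library, in CPM (counts per 1000000 counts of a library, scaled by TMM) on a log axis, grouped by role. Filled circles are the 4 FP libraries and open squares the 3 PBS libraries. The FP circles of Rad51ap1, Brip1 and Brca1 stand far to the right of the PBS squares, those of Atr stand to the left, and those of Xrcc3, Nbn and Mus81 overlap the squares.

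The libraries held between 9956509 and 13429878 counts. Cell division markers were higher after FP in 12 of 12 genes, with a median log2 fold change of 4.63. The proliferation antigen Mki67 had 815 to 1550.15 CPM in the FP libraries, against 41.0 to 62.1 CPM in the PBS libraries. Foxp3, which defines the sorted cells, averaged 539 CPM in FP and 489.9 CPM in PBS and did not pass (log2 fold change 0.14, adjusted p = 0.292 by edgeR). The summed level of 9 Treg markers was 5844 ± 428 CPM in FP and 3738 ± 201 CPM in PBS (SD, n = 4 and n = 3). Of these 9 genes 4 rose (median log2 fold change 0.14). Il2ra, which encodes the CD25 chain of the receptor, gave most of the difference, at a mean of 1934 CPM in FP and 600.3 CPM in PBS. Monocyte and macrophage markers summed to 18.2 to 84.8 CPM in the FP libraries, against 429 to 1040 CPM in the PBS libraries. Of the 10 tested, 9 fell and 1 rose. Dendritic cell markers summed to 11.7 to 15.7 CPM in FP and 24.3 to 36.1 CPM in PBS, and natural killer cell markers to 2.92 to 6.20 CPM in FP and 15.2 to 33.4 CPM in PBS. Plasma cell markers summed to 149 to 224 CPM in FP and 86.3 to 95.1 CPM in PBS, mostly from Xbp1 and Prdm1, which activated T cells also express. B cell markers summed to 24.5 to 34.2 CPM in FP and 24.1 to 43.8 CPM in PBS, CD8 T cell markers to 7.83 to 12.9 CPM in FP and 8.91 to 9.78 CPM in PBS, and erythroid markers to 10.2 to 27.4 CPM in FP and 14.5 to 31.8 CPM in PBS. Neutrophil markers summed to at most 1.24 CPM in FP and 0.146 CPM in PBS. In an exact permutation test the Treg, monocyte, dendritic, natural killer and neutrophil sums each reached the smallest p possible, 0.0286, or 0.0514 adjusted over the 9 lists, plasma cell markers had an adjusted p of 0.0857, and the other lists had adjusted p from 0.257 to 0.514. With library size alone, the Treg, monocyte, dendritic, natural killer, neutrophil and plasma cell sums each had an adjusted p of 0.0429. The part of these other cells, and of the share of dividing cells, in the changes below was not tested. In sorted bulk samples, fewer cells of a type and less RNA per cell cannot be told apart.

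Promoters of 28 of the 35 genes were in the list of RefSeq promoters used here (GRCm38.p6), as 250 bases before to 50 bases after the annotated start. The other 7 are Rad54b, Xrcc2, Exo1, Fancd2, Rbbp8, Nbn and Rad50. They have no entry in that list, which does not mean that RefSeq lacks them. Rad54b, Xrcc2, Exo1, Fancd2 and Rbbp8 rose, so the shares below leave out part of the genes that rose. The letters of E2F sites were searched there, since E2F factors are known to drive genes of S phase. The motifs were TTCCCGC or TTGGCGC or TTCGCGC or TTGCCGC, on both strands. A match lay in 16 of the 28 promoters (57.1%), in 10.9% of the promoters of all 27025 genes listed and in 19.0% of those of the 10190 tested genes with a promoter. Of the 28, a match lay in 13 of the 17 genes that rose (76.5%) and in 3 of the 11 others (27.3%). Among all tested genes, the shares were 26.2% of those that rose and 16.6% of the others. The CCAAT box, CCAAT on either strand, lay in 18 of 28 (64.3%), against 42.5% of tested genes. The CHR element, searched as TTTGAA or TTCGAA or TTTAAA, lay in 4 of 28 (14.3%), against 25.0%. The STAT letters TTCNNNGAA lay in 3 of 28 (10.7%), against 8.41%. These genes have promoters of 58.7% G and C on average, against 60.2% in tested genes.

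The following promoters were chosen after the values were seen. They are those of Rad51ap1, Brip1 and Brca1, the largest rises among the genes with a promoter listed. Beside them stand both genes of Eme1 with Mus81 and of Chek1 with Atr, partners that did not move together. Each is shown 5′ to 3′ on the gene's own strand, and capitals mark the E2F letters. The first set has a match. Rad51ap1 lies on the minus strand (chr6:126939538-126939837), as do Brip1 (chr11:86201144-86201443), Brca1 (chr11:101551906-101552205) and Chek1 (chr9:36726609-36726908). The other set has none: Eme1 (chr11:94653694-94653993) and Mus81 (chr19:5488330-5488629) on the minus strand and Atr (chr9:95857347-95857646) on the plus strand.
Rad51ap1: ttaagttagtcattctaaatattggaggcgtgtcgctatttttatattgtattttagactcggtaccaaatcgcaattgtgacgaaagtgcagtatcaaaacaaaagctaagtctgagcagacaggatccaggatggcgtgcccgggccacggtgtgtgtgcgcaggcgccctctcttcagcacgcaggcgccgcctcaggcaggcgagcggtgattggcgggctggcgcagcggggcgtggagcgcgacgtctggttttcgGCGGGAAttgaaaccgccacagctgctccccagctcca
Brip1: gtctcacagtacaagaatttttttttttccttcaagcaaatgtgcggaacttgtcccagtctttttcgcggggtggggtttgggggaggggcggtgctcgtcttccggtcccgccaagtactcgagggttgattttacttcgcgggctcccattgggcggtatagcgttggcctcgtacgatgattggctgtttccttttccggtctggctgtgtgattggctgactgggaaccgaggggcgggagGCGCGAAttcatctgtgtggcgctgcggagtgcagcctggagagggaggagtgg
Brca1: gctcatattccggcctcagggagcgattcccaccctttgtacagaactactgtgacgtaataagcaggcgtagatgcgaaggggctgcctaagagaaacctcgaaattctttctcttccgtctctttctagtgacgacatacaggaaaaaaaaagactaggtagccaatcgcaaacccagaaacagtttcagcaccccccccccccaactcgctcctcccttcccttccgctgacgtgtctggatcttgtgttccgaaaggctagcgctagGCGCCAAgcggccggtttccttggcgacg
Chek1: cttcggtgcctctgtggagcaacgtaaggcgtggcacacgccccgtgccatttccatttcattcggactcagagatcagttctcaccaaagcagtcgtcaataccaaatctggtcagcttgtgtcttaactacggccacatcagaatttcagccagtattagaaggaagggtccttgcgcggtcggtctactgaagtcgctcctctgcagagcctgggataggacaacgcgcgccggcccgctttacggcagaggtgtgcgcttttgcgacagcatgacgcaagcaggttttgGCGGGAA
Eme1: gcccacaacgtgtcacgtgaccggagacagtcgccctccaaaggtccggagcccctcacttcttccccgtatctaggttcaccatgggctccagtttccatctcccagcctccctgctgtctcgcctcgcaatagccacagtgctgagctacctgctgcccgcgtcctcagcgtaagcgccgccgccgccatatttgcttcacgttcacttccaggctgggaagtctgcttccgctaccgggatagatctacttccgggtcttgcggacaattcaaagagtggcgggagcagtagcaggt
Mus81: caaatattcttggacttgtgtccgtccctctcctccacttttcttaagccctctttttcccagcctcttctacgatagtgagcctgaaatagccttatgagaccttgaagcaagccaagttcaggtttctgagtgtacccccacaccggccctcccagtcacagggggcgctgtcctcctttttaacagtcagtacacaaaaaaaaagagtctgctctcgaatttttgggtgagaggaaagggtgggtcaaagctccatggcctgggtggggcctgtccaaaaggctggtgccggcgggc
Atr: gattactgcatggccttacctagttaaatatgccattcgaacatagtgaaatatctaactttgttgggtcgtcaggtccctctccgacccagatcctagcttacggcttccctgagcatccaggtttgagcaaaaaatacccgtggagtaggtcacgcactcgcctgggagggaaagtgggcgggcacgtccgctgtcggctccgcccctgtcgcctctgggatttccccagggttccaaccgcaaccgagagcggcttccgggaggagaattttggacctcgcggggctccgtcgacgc
In GENCODE M21 on the same build, the genes span chr6:126923050-126939587 (Rad51ap1), chr11:86058138-86201193 (Brip1), chr11:101488764-101551955 (Brca1), chr9:36708482-36727065 (Chek1), chr11:94644996-94653964 (Eme1), chr19:5482345-5488402 (Mus81) and chr9:95857597-95951781 (Atr). The matches began at positions 12, -4, 21 and 43 in Rad51ap1, Brip1, Brca1 and Chek1, counted from 0 at the annotated start base, and all were read on the opposite strand. Eme1 rose without a match in its window, as did Rad54l, Fanca and Palb2, so a match did not mark every gene that rose. Fancg, Atm and Fancf had a match and did not pass. The RefSeq starts used here are not all the GENCODE ends. The window of Chek1 lies wholly inside its GENCODE span, and most of that of Eme1 does. Bases before the GENCODE start were thus not searched in Chek1 and only in small part in Eme1. Matches and their lack hold for the RefSeq windows alone.

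Beside the counts of each role stand the shares of all genes tested, 21.0% higher and 18.5% lower. The BRCA complex and its mediators rose in 4 of 4 genes, with a median log2 fold change of 2.02. Brca1, the ubiquitin ligase and scaffold that directs breaks to recombination, had 70.7, 67.5, 85.7 and 50.03 CPM in FP 1 to FP 4, against 7.93, 5.34 and 6.55 CPM in PBS 1 to PBS 3. Its obligate partner Bard1 had 71.2, 68.1, 75.5 and 49.0 CPM in the FP libraries, against 10.2, 7.39 and 7.95 CPM in the PBS libraries. In both genes the lowest FP library, FP 4, was far above the highest PBS library. Brca1 was 10.4-fold higher (log2 fold change 3.38, SE 0.21, adjusted p = 3.21e-06 by edgeR) and Bard1 7.74-fold higher (2.95, SE 0.18, adjusted p = 2.91e-06). Brca2, which prepares single-stranded DNA for strand exchange, had 47.5, 42.2, 57.3 and 42.2 CPM in FP, against 22.6, 19.8 and 24.1 CPM in PBS, and was 2.13-fold higher (log2 fold change 1.09, SE 0.14, adjusted p = 0.000239 by edgeR). Palb2, the bridge between Brca1 and Brca2, had 18.2, 14.4, 16.4 and 11.1 CPM in FP, against 7.05, 10.8 and 9.70 CPM in PBS. The groups of Palb2 came close to each other, FP 4 against PBS 2. Its log2 fold change of 0.70 (SE 0.21) passed at an adjusted p of 0.0230 by edgeR and did not pass with upper-quartile scaling (0.49, adjusted p = 0.0724), with library size alone (0.42, adjusted p = 0.118) or without any one of FP 1, FP 3, PBS 1 and PBS 3 (adjusted p between 0.0515 and 0.0700).

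Among the genes that assist strand exchange, 4 of 5 genes rose and the median log2 fold change was 2.63. Rad51ap1, which helps the broken strand invade the template, had the largest change of the 35 genes. It had 26.1, 29.3, 28.2 and 17.6 CPM in the FP libraries, against 1.59, 0.805 and 0.787 CPM in the PBS libraries, which are 18, 11 and 9 counts. It was 23.9-fold higher (log2 fold change 4.58, SE 0.29, adjusted p = 3.31e-06 by edgeR). The translocases Rad54b and Rad54l, which remodel DNA during strand exchange, moved the same way. Rad54b had 21.9, 16.9, 23.7 and 16.9 CPM in FP, against 1.67, 1.54 and 1.31 CPM in PBS (log2 fold change 3.71, SE 0.22, adjusted p = 2.27e-06 by edgeR). Rad54b shares exon bases with Fsbp on the same strand, whose total count was 137 beside 946 for Rad54b. Rad54l had 40.4, 42.2, 49.7 and 32.1 CPM in FP, against 5.55, 5.85 and 8.48 CPM in PBS (log2 fold change 2.63, SE 0.20, adjusted p = 8.94e-06 by edgeR). The related genes Xrcc2 and Xrcc3, which also assist strand exchange, parted. Xrcc2 had 12.2, 11.2, 16.996 and 9.11 CPM in FP, against 6.08, 5.63 and 5.86 CPM in PBS (log2 fold change 1.07, SE 0.22, adjusted p = 0.00356 by edgeR). Xrcc3 had 8.04, 9.66, 15.7 and 14.02 CPM in FP, against 9.43, 13.3 and 14.3 CPM in PBS, groups that overlapped (log2 fold change -0.05, SE 0.24, adjusted p = 0.875 by edgeR).

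Of the genes of end resection and of the dissolution of joined strands, 3 of 5 rose, with a median log2 fold change of 1.34. Exo1, the exonuclease of long-range resection, had 34.2, 24.5, 38.0 and 20.6 CPM in FP, against 2.20, 3.58 and 1.75 CPM in PBS. It was 11.4-fold higher (log2 fold change 3.52, SE 0.30, adjusted p = 2.38e-05 by edgeR), with every FP library above every PBS library. Rbbp8, the cofactor that starts resection (CtIP in human), had 55.7, 51.6, 45.5 and 31.5 CPM in FP, against 19.3, 18.7 and 16.5 CPM in PBS (log2 fold change 1.34, SE 0.19, adjusted p = 0.000397 by edgeR). The helicase Blm, which dissolves double junctions, had 51.1, 37.7, 47.6 and 36.9 CPM in FP, against 19.8, 15.6 and 15.99 CPM in PBS (log2 fold change 1.34, SE 0.16, adjusted p = 0.000147 by edgeR). Rad50 and Nbn belong to the complex that holds the broken ends, and neither passed. Rad50 had 80.2, 70.3, 76.1 and 70.2 CPM in FP, against 65.7, 66.4 and 68.9 CPM in PBS. Its groups did not overlap, but the difference was small (log2 fold change 0.15, SE 0.09, adjusted p = 0.201 by edgeR) and turned to -0.06 with upper-quartile scaling. Nbn had 45.7, 44.8, 28.1 and 29.5 CPM in FP, against 29.5, 26.1 and 25.3 CPM in PBS. FP 1 and FP 2 were high and FP 3 and FP 4 were near the PBS libraries (log2 fold change 0.45, SE 0.19, adjusted p = 0.0797 by edgeR). Nbn passed without FP 3 (adjusted p = 0.0341), without FP 4 (0.0273) and with no filter on low counts (0.0409).

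**Figure D2:**
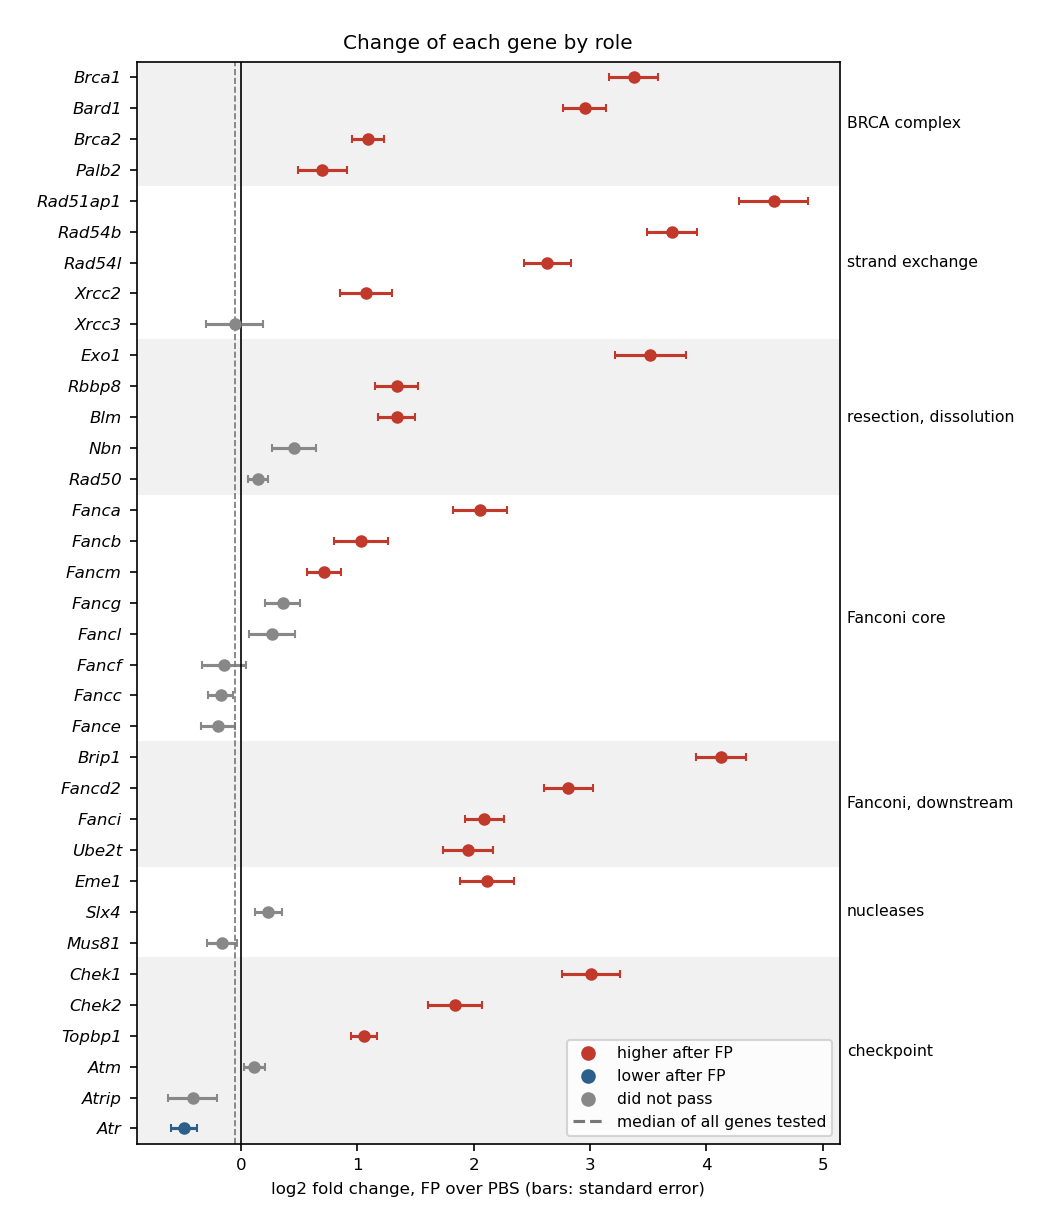
Log2 fold change of each gene, FP over PBS, with its standard error as the bar, ordered by role. The dashed line marks the median of all genes tested, -0.05. Rad51ap1 (4.58) and Brip1 (4.12) lie farthest right, Atr (-0.49) is the gene that fell, and most of the Fanconi core lies near 0.

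The Fanconi genes of the 35 divided by the roles used here. In the role of monoubiquitination and downstream steps, 4 of 4 genes rose, with a median log2 fold change of 2.45. In the core complex, 3 of 8 rose (37.5%, against 21.0% of all genes tested), with a median of 0.31. The difference between the roles was not tested, and the split rests on which genes were listed in each. Slx4, listed with the nucleases, did not pass. Of 18 other Fanconi pathway genes tested, 4 rose and 5 fell, with Fan1 (-0.48), Ercc4 (-0.32) and Rev1 (-0.50) among those that fell. The share that rose there, 22.2%, was near the 21.0% of all genes tested. Ube2t, the enzyme that supplies the ubiquitin, had 19.0, 16.3, 19.4 and 12.3 CPM in FP, against 3.53, 4.90 and 4.46 CPM in PBS (log2 fold change 1.95, SE 0.21, adjusted p = 9.09e-05 by edgeR). Its substrate Fancd2 had 27.6, 30.7, 34.6 and 20.2 CPM in FP, against 4.41, 3.804 and 3.85 CPM in PBS (log2 fold change 2.81, SE 0.21, adjusted p = 7.80e-06 by edgeR). The other substrate, Fanci, had 36.9, 29.5, 34.9 and 24.7 CPM in FP, against 7.05, 7.02 and 8.04 CPM in PBS (log2 fold change 2.09, SE 0.17, adjusted p = 1.45e-05 by edgeR). No FP library came near a PBS library in these genes. Brip1, the helicase that binds Brca1 (FANCJ in human), had 58.5, 49.5, 64.1 and 38.2 CPM in FP, against 3.35, 2.63 and 3.06 CPM in PBS. It was 17.4-fold higher (log2 fold change 4.12, SE 0.22, adjusted p = 1.58e-06 by edgeR), the second largest change among the 35 genes.

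Within the core complex, the genes that rose were Fanca, Fancb and Fancm. Fanca had 25.9, 21.4, 37.3 and 22.6 CPM in FP, against 5.02, 7.68 and 6.55 CPM in PBS (log2 fold change 2.05, SE 0.23, adjusted p = 0.000119 by edgeR). Fancb, a partner of the ligase Fancl, had 9.44, 7.18, 5.85 and 6.33 CPM in FP, against 3.70, 3.88 and 2.88 CPM in PBS (log2 fold change 1.03, SE 0.23, adjusted p = 0.00574 by edgeR). Fancm, the translocase that brings the complex to DNA, had 47.7, 41.0, 52.7 and 36.2 CPM in FP, against 29.1, 28.1 and 24.0 CPM in PBS (log2 fold change 0.71, SE 0.14, adjusted p = 0.00338 by edgeR). Groups overlapped in the other genes of the core. Fancl, the ligase itself, had 21.8, 19.0, 13.8 and 12.4 CPM in FP, against 14.8, 13.02 and 13.8 CPM in PBS (log2 fold change 0.26, adjusted p = 0.318 by edgeR). Fancg had a log2 fold change of 0.36 (adjusted p = 0.0864 by edgeR) and passed without FP 1 (adjusted p = 0.0246). Fancf, Fancc and Fance had log2 fold changes of -0.15, -0.18 and -0.20 (adjusted p = 0.566, 0.231 and 0.315 by edgeR). With library size alone, where all genes shift down, Fancc and Fance passed as lower (adjusted p = 0.00769 and 0.0481), and Fancc did so with upper-quartile scaling as well (0.0133).

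Of the nucleases that cut branched DNA, 1 of 3 rose (33.3%, against 21.0% of all genes tested). Eme1, the partner that makes Mus81 an active nuclease, had 11.7, 15.2, 16.7 and 9.82 CPM in FP, against 2.73, 3.07 and 3.41 CPM in PBS (log2 fold change 2.11, SE 0.23, adjusted p = 0.000100 by edgeR). Mus81, the catalytic subunit, had 22.2, 24.3, 23.5 and 29.8 CPM in FP, against 26.4, 29.9 and 27.6 CPM in PBS (log2 fold change -0.16, SE 0.13, adjusted p = 0.339 by edgeR). The groups of Eme1 stood apart and those of Mus81 overlapped. Eme1 shares exon bases with Lrrc59 and Mrpl27 on the opposite strand, which held 4725 and 1015 counts beside 713 for Eme1 and had log2 fold changes of 1.20 and 0.77. Without the strand setting of the counting, reads of Eme1 and of these neighbours cannot be told apart, and the value of Eme1 is uncertain. The same limit holds for other genes of the 35 whose neighbour on the opposite strand had more counts: Fanci (1674 counts, beside 9349 for Polg), Xrcc3 (1006, beside 5645 for Klc1), Fancc (3687, beside 6386 for 2010111I01Rik), Fancl (1246, beside 2695 for Vrk2) and Fanca (1446, beside 1809 for Zfp276, whose log2 fold change was -0.47). Slx4, the scaffold of several nucleases, had 55.2, 62.6, 74.7 and 61.6 CPM in FP, against 53.4, 58.7 and 50.1 CPM in PBS (log2 fold change 0.23, SE 0.12, adjusted p = 0.135 by edgeR).

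In the checkpoint, 3 of 6 genes rose (50%, against 21.0% of all genes tested) and 1 fell. The effector kinases Chek1 and Chek2 rose, the sensor kinase Atr fell and Atm did not pass. Chek1, the kinase that Atr activates, had 36.5, 25.2, 25.2 and 18.0 CPM in FP, against 3.61, 3.22 and 2.88 CPM in PBS. It was 8.04-fold higher (log2 fold change 3.01, SE 0.25, adjusted p = 1.76e-05 by edgeR). Chek2, the kinase that Atm activates, had 12.8, 14.7, 20.2 and 11.1 CPM in FP, against 4.496, 4.02 and 3.76 CPM in PBS (log2 fold change 1.84, SE 0.23, adjusted p = 0.000222 by edgeR). Topbp1, which switches Atr on, had 223, 221, 229.5 and 178 CPM in FP, against 111, 101 and 94.7 CPM in PBS (log2 fold change 1.06, SE 0.11, adjusted p = 7.25e-05 by edgeR). Every FP library stood above every PBS library in all of these genes. Atr itself had 80.8, 64.3, 61.6 and 71.7 CPM in FP, against 102, 88.2 and 103 CPM in PBS, and was the one gene of the 35 that fell (log2 fold change -0.49, SE 0.11, adjusted p = 0.00608 by edgeR). All FP libraries lay below all PBS libraries. Its binding partner Atrip had 5.90, 5.94, 8.22 and 9.54 CPM in FP, against 8.64, 10.4 and 10.7 CPM in PBS (log2 fold change -0.42, SE 0.21, adjusted p = 0.138 by edgeR), and passed without FP 4 (adjusted p = 0.0388). Atm had 241, 211, 198 and 219 CPM in FP, against 211, 196 and 195 CPM in PBS, groups that overlapped (log2 fold change 0.11, SE 0.09, adjusted p = 0.350 by edgeR).

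Levels of different genes were compared as CPM per kilobase of exon. Atm stood highest in both groups, at 21.0 ± 1.74 in FP and 19.4 ± 0.848 in PBS (SD, n = 4 and n = 3). Topbp1 was second in FP, at 19.0 ± 2.10, and at place 4 in PBS, at 9.11 ± 0.749. Rad50 and Nbn, with Atm and Topbp1, held the first 4 places in both groups. Brca1 stood at place 7 in FP and 28 in PBS, Brip1 at 8 in FP and 32 in PBS, and Rad51ap1 at 13 in FP and 35, the last, in PBS. Atr stood at place 30 in FP and 10 in PBS, and Atrip at 35, the last, in FP and 19 in PBS. The places of Atr rest on all its annotated exon bases, 23629, the most among the 35 genes. Before division by length Atr averaged 69.6 CPM in FP and 97.6 CPM in PBS. In FP, the levels of Rad50 (13.8 ± 0.906) and Nbn (14.6 ± 3.76) did not differ beyond their spread. Many neighbours in the middle of the order lay as close.

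**Figure D3:**
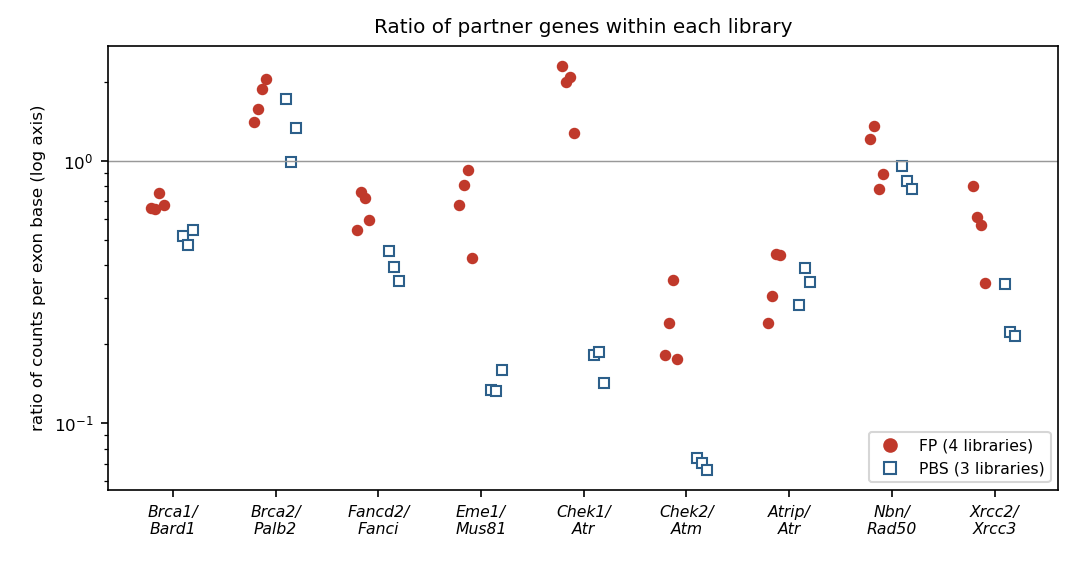
Ratio of partner genes within each library, from counts per exon base, on a log axis. Filled circles are the 4 FP libraries and open squares the 3 PBS libraries. The circles of Eme1 over Mus81, Chek1 over Atr and Chek2 over Atm lie above the squares, while those of Brca2 over Palb2, Atrip over Atr and Nbn over Rad50 overlap them.

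The ratio of partner proteins' genes within a library does not depend on how libraries are scaled. The pairs were chosen with the values known, so the ratios are a description. Counts of Chek1 per exon base were 2.30, 1.99, 2.09 and 1.28 times those of Atr in FP 1 to FP 4, against 0.181, 0.186 and 0.143 times in PBS 1 to PBS 3. Per exon base, Chek1 stood above Atr in each FP library and below it in each PBS library. This crossing rests on the exon lengths used, 4635 bases for Chek1 and 23629 for Atr, and in CPM Chek1 stayed below Atr in every library. Eme1 over Mus81 stood at 0.708 ± 0.212 in FP and 0.142 ± 0.0152 in PBS (SD, n = 4 and n = 3). Chek2 over Atm stood at 0.237 ± 0.0815 in FP and 0.0701 ± 0.00362 in PBS. Where both partners rose, the ratio moved less than in these pairs. Fancd2 over Fanci was 0.655 ± 0.102 in FP and 0.399 ± 0.0535 in PBS, and Brca1 over Bard1 0.686 ± 0.0454 in FP and 0.513 ± 0.0336 in PBS. Fancd2 over Fanci and Brca1 over Bard1 stood apart between the groups. Brca2 over Palb2, where both also rose, overlapped (1.73 ± 0.289 in FP, 1.35 ± 0.368 in PBS). Small moves also came without 2 rises: Atrip over Atr was 0.357 ± 0.0999 in FP and 0.338 ± 0.0543 in PBS. Nbn over Rad50 was 1.06 ± 0.267 in FP and 0.857 ± 0.0886 in PBS. Xrcc2 over Xrcc3 stood apart, at 0.581 ± 0.188 in FP and 0.259 ± 0.0698 in PBS.

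The genes that rose varied together among the FP libraries. FP 4 was the lowest FP library in 19 of the 22, and FP 3 was the highest in 15. The median of FP 4 was -0.41 on the log2 scale against the mean of the FP libraries. In the 13 genes that did not rise, FP 4 was the lowest in 3, with a median of 0.01. FP 4 was also the lowest in 12 of 12 cell division markers, with a median of -0.62, and in 72.3% of all 3355 genes that rose, with a median of -0.24. FP 3 stood at 0.27 in the recombination genes that rose, at 0.19 in the cell division markers and at -0.02 in all genes that rose. FP 3 was the highest in 3 of the 12 cell division markers and in 16.5% of all genes that rose. FP 2 was the highest in 5 of the 12 markers and in 49.0% of all genes that rose. The cause of this spread was not tested. Within groups, the median coefficient of variation over the 35 genes was 19.4% in FP and 11.002% in PBS. Without FP 4, 23 of the 35 genes rose and 2 fell, so the counts did not rest on that library.

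**Figure D4:**
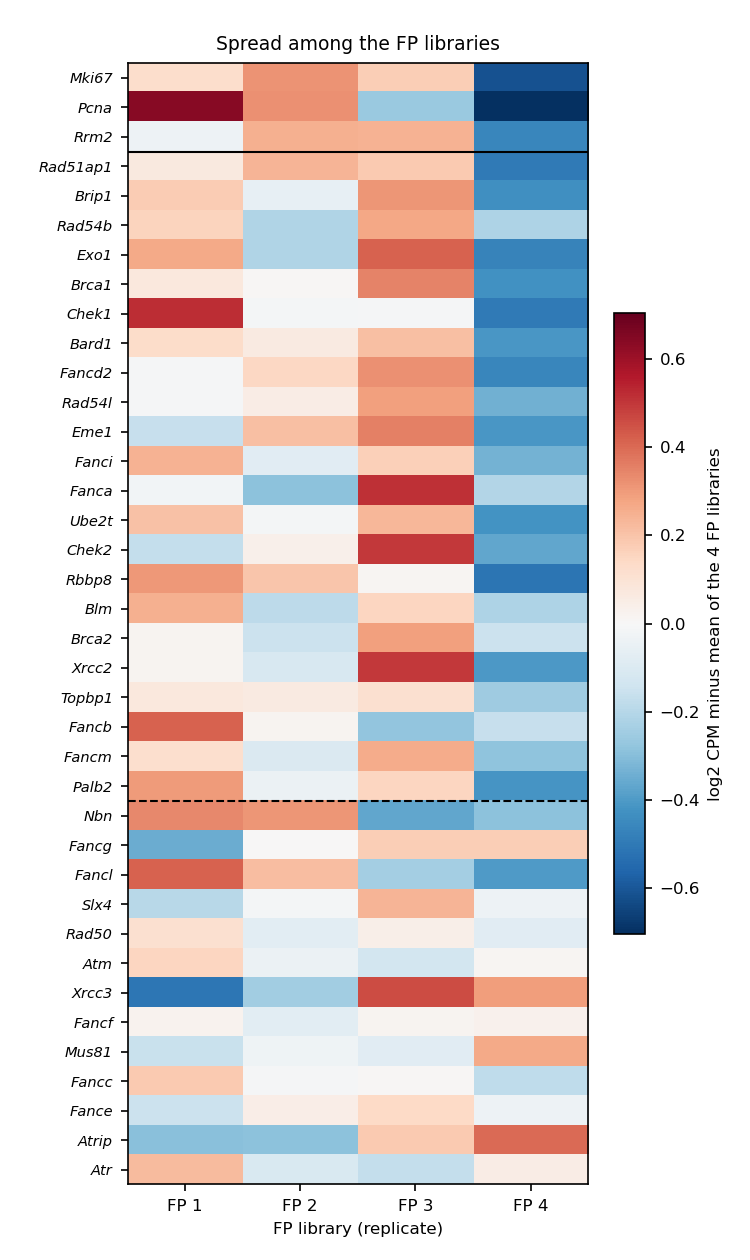
Spread among the FP libraries: log2 CPM minus the mean of the 4 FP libraries, for 3 cell division markers (above the solid line), the 22 genes that rose (above the dashed line) and the 13 others. FP 4 is blue, meaning low, in the markers and in each of the genes that rose, and FP 3 is red in most of the genes that rose. The genes under the dashed line show no common column.

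Other genes of the same pathways were counted beside the 35. Of those tested, 55.2% of the recombination, 22.2% of the Fanconi and 50% of the checkpoint genes were higher. In all genes tested, 21.0% were higher and 18.5% were lower. Of 29 other recombination genes tested, 16 rose and 1 fell, with a median log2 fold change of 0.53. The polymerase Polq of alternative end joining (log2 fold change 2.60), the resection nuclease Dna2 (3.14) and Rmi2 of the Blm complex (2.02) rose. The remodeller Ino80 fell (-0.31, adjusted p = 0.0137 by edgeR). Lower genes of this list numbered 0 without any one of PBS 1, PBS 2 and PBS 3, and 3 with upper-quartile scaling or library size alone. Of 18 other Fanconi pathway genes, 4 rose and 5 fell, with a median of 0.02. Uhrf1 (3.98), Cenps (3.26) and Usp1 (1.24), which removes the ubiquitin from Fancd2, rose, while the nucleases Fan1 (-0.48) and Ercc4 (-0.32) and the polymerase Rev1 (-0.50) fell. Of 24 other checkpoint genes, 12 rose and 2 fell, with a median of 0.32. Clspn, the adaptor between Atr and Chek1, rose by 4.87 on the log2 scale and Wee1, a brake on mitosis, by 2.48. Mdc1 (-0.57) and Trp53bp1 (-0.23), which bind chromatin at breaks, fell (adjusted p = 0.000289 and 0.0408 by edgeR). These 2 lower genes became 1 with DESeq2 size factors, the DESeq2 test or no filter. The count was also 1 without any one of FP 1, FP 2, PBS 1, PBS 2 and PBS 3. It was 5 with upper-quartile scaling or library size alone.

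Other repair pathways gave medians near 0, which does not mean that few of their genes moved. In nucleotide excision repair 55.6% of the genes passed in either direction, against 39.5% of all genes tested. The share was 16.7% in end joining, 28.6% in mismatch repair and 35% in base excision and single-strand break repair. Of 12 end joining genes, 1 rose and 1 fell (median log2 fold change 0.01). Of 7 mismatch repair genes, 1 rose and 1 fell (0.05). Of 18 nucleotide excision repair genes, 5 rose and 5 fell (0.03), Ddb1 (0.64) among the first and Uvssa (-0.95) among the second. Of 20 genes of base excision and single-strand break repair, 5 rose and 2 fell (0.03). The glycosylase Neil3 was an exception in size there, with 34.4, 37.8, 58.8 and 32.7 CPM in FP, against 0.617, 1.54 and 1.14 CPM in PBS (log2 fold change 5.18, SE 0.32, adjusted p = 3.38e-06 by edgeR). No difference between lists was tested. The counts in these lists moved with the processing: the 5 lower genes of the other Fanconi list became 8 with library size alone and 1 without PBS 2. In nucleotide excision repair, 3 were higher and 2 lower without PBS 2 and without PBS 3, and 3 were higher with library size alone.

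**Figure D5:**
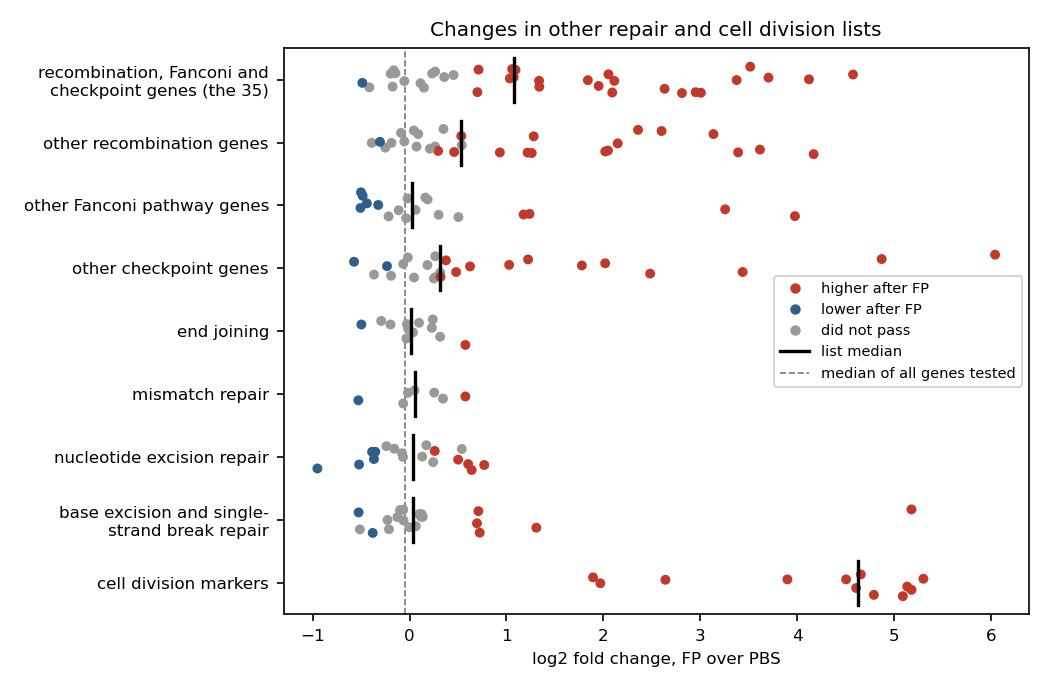
Log2 fold change of every tested gene in the 35 and in each of the other lists, FP over PBS. Red points were higher, blue points lower, grey points did not pass, the black bar is the list's median and the dashed line the median of all genes tested. The bar of the 35 genes stands at 1.07, those of end joining, mismatch, nucleotide and base excision repair stand near 0, and that of the cell division markers at 4.63.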

How the data were processed

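Per the labels, the authors extracted RNA from sorted Tregs and made libraries from 25 ng of total RNA after removal of ribosomal RNA. Per the series' design text and the submitters' processing notes, the authors mapped reads to GRCm38 with STAR (2.5.0b in the notes) and assigned them to genes of GENCODE M13 with featureCounts 1.5.0. Neither the strand setting nor the handling of multimapping reads is given in the sources used here. The authors deposited raw counts (so named in the design text, and whole numbers in the table) in 7 columns, each matched to its sample by name.

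Counts were tested with edgeR 4.0.16 (R 4.3.3; TMM factors, filterByExpr, robust quasi-likelihood fit) over 15954 genes, with a threshold of 0.05. CPM are counts per 1000000 counts of a library, scaled by TMM. A limit of 3 counts per library is 0.214 to 0.322 CPM and covers counting error only. Summed marker levels had an exact permutation test (two-sided, all 35 assignments, smallest possible p 0.0286). Exon lengths and overlaps were read from GENCODE M21, on the same build and newer than M13, and 13 of the 35 genes share exon bases with another gene (1 of them on the same strand). Symbols were found for 50376 of 51138 identifiers, and the other 762 held at most 0.144% of a library. Promoters came from RefSeq (GRCm38.p6). The fit was also run on counts simulated from its own means and dispersions, with few changed genes. That run cannot check the scaling under the many changes seen here, or whether the libraries are independent. Alternatives were other scalings (DESeq2 size factors, upper quartile, library size alone), DESeq2 1.42.0, limma-voom 3.58.1, other filters, a replicate block and leaving out each library.

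The 35 genes, the lists and the roles were chosen with earlier results of these data known. All 35 are named. From each other list at most the 4 genes with the smallest p in each direction could be named, and some of these are given. 1 gene that this rule takes is not reported here. Foxp3 is given outside this rule, as the marker of the sort. Rad9a was listed at 0 counts and Dmc1 did not pass the filter. The listed name Stra13 was not matched, and 4 other listed genes were matched through a synonym.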

Additional observations from a re-analysis of the deposited data

Results flagged for a closer look

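In the 44 groups of 4 libraries examined (the CPM of the 35 genes and of 9 summed marker lists in the FP libraries), 2 held a library far from the others by Dixon's ratio, the gap to the nearest library over the whole range, past its 95% critical value. Chance gives about 1 in 20 groups. Fancf had a ratio of 0.924: FP 2 stood at 4.70 CPM, below the other FP libraries, which lay between 5.03 and 5.05 CPM, so the gap is small in size. Topbp1 had a ratio of 0.836: FP 4 stood at 178 CPM, below the other FP libraries at 221 to 229.5 CPM, and above the highest PBS library at 111 CPM.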

How the results depend on the processing

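Of the 22 genes that rose, 21 kept their call under every alternative run, as did the fall of Atr, and Palb2 is the exception described in the results. Upper-quartile scaling gave 4823 lower genes in all and 2 lower among the 35. Library size alone gave 2032 higher and 5033 lower genes in all and 3 lower among the 35. The same scalings turned genes that had not passed: Rad50 to -0.056 and Atm to -0.091 with upper-quartile factors, and Fancl to -0.025, Rad50 to -0.12, Slx4 to -0.0265 and Atm to -0.16 with library size alone, none of which passed. The replicate numbers are shared by the groups but are not said to pair samples. Deviations of same-numbered libraries correlated at 0.219, 0.0702 and 0.0966, inside the range of differently numbered libraries, -0.329 to 0.394. With a replicate block, 4122 genes were higher and 3749 lower, and of the 35 genes 23 were higher and 2 lower (Nbn and Atrip added). FP 4 has no PBS library of its number, so it adds nothing to the FP effect in that fit. Leaving FP 4 out gave the same counts among the 35, also with Nbn and Atrip added. With no filter on low counts, 23 of the 35 were higher, Nbn being added. Leaving out each library in turn gave 4088 to 7278 genes in all (2314 to 3888 higher, 1774 to 3390 lower), and 22 to 25 of the 35 (21 to 23 higher, 1 to 2 lower). The fewest came without PBS 3, and lower genes numbered 1869 without PBS 2. Leaving out single libraries put the log2 fold change of Xrcc3 between -0.21 and 0.10 (above 0 without FP 1, FP 2, PBS 2 or PBS 3) and that of Fancf between -0.21 and 0.020 (above 0 without PBS 1), and neither passed. The summed CD8 T cell markers turned to -0.572 CPM, FP minus PBS, with library size alone, where 6 of the 9 marker sums had an adjusted p of 0.0429. The B cell markers lay between -8.89 CPM without PBS 1 and 0.969 CPM without PBS 3. The cause of these shifts was not tested. The limit of depth was highest for Rad51ap1, with 9 to 18 counts in the PBS libraries.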
